A study of Homo sapiens with 6 samples.

Results

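The cytosolic chaperone genes described here are 44 genes for heat shock proteins of the HSP70, HSP110, HSP90, HSP40 and small HSP families, their co-chaperones, the 8 subunits of the chaperonin CCT and the heat shock factors HSF1 and HSF2, out of 57820 gene rows in the count table. They were taken by symbol from a list that was made with earlier results of these data known. No measured value entered the rule, and each gene matched 1 row. HSPB11 was found under its current symbol IFT25. HEK293 is an established line from human embryonic kidney. The vehicle group (control) received dimethyl sulfoxide for 12 h and the treated group received 100 µM minocycline, a tetracycline antibiotic, for 12 h, and both were harvested without heat shock, from medium with serum and penicillin-streptomycin. Each group had 3 libraries of total RNA, called biological replicates in the series' design text, and same-numbered libraries shared a batch. All libraries come from 1 cell line at 1 dose and 1 time.

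HSP70 proteins bind exposed stretches of unfolded chains, HSP40 (J-domain) proteins bring them clients and start ATP hydrolysis, and nucleotide exchange factors release the client. HSP90 takes over late folding of kinases and steroid receptors with a set of co-chaperones, and CCT, a double ring with one copy of each subunit per ring, folds actin and tubulin. HSF1 is the transcription factor that turns on many of these genes when unfolded protein builds up, through heat shock elements made of inverted GAA units.

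The heat shock elements of the members are shown first, because they mark which promoters carry exact runs of the units that HSF1 binds. Inexact units were not searched, and binding was not measured. RefSeq promoter windows (GRCh38.p14) were found for 38 of the 44 members, 58 windows in all, and the 250 bases before the start site were searched. The element of 3 alternating units was searched as GAA, TTC and GAA, or TTC, GAA and TTC, with 2 bases of any kind between neighbouring units; these forms are reverse complements of each other, so both strands are covered, and every such match also holds the shorter pair of units. It occurred in 6 of 58 member windows (10.3%) and in 0.441% of 35116 windows of all genes. That pair, GAANNTTC or TTCNNGAA, each its own reverse complement, occurred in 17 member windows (29.3%) and in 11.6% of all. Each stretch below is 30 bases around a match, written along the gene's strand, with the run of units in capitals.
HSP90AB1: ctgagattgTTCTGGAAGCTTCtggattct
HSP90AA1: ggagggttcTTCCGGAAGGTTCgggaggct
HSPA8: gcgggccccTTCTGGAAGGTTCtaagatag
CHORDC1: accgGAAAATTCGCGAAGGTTCCTGAAacg
DNAJB6: aagagccgaGAACCTTCGCGAAggtggggc
SERPINH1: tttccaactTTCCAGAAGTTTCtcgggacg

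In GRCh38.p14 these lie at chr6:44247822-44247851 on the plus strand (HSP90AB1), chr14:102087112-102087141 on the minus strand (HSP90AA1), chr11:123062171-123062200 on the minus strand (HSPA8), chr11:90223084-90223113 on the minus strand (CHORDC1), chr7:157336864-157336893 on the plus strand (DNAJB6) and chr11:75562168-75562197 on the plus strand (SERPINH1). In the windows searched, the capitals began 112 bases before the start site in HSP90AB1, 88 in HSP90AA1, 55 in HSPA8, 60 in CHORDC1, 131 in DNAJB6 and 76 in SERPINH1. CHORDC1 has a run of 23 bases, and the others have runs of 13. HSP90AB1 and HSPA8 each had 2 matches to the element of 3 units, and not both are shown. HSPH1, DNAJB1, HSPB1, HSPA1A, HSPA1B and BAG3, which are also heat-inducible genes, had no match to the element of 3 units in their windows. This says only that these letters are not there.

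None of the tested members passed the test for a change with minocycline. Of the 44 members 43 passed the filter on low counts, and HSPA1A did not. In edgeR's quasi-likelihood test with Benjamini-Hochberg adjustment over 17225 genes, 0 of 43 members had an adjusted p under 0.05 (0.820 to 0.997), against 0.0522% of all genes tested. DESeq2, limma-voom and edgeR with the replicate block also called 0 members, where they called 0.285%, 0.0639% and 0.0755% of all genes. At an unadjusted p under 0.05 the members held 1 higher gene (SERPINH1) and 4 lower genes (HSPA1B, AHSA1, DNAJB1 and HSPA2), against 2.72% and 1.97% of all genes (4.7% in both directions). The fitted level was lower with minocycline for 35 members (81.4%) and for 47.9% of all genes tested. The median log2 fold change was -0.12 for the members and 0.01 for all genes. In bulk RNA, fewer cells with a transcript and less of it per cell cannot be told apart. For scale, the asparagine synthetase gene ASNS, which the same fit did call, had a log2 fold change of 1.59 ± 0.16 (SE; adjusted p = 0.00762).

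**Figure D1:**
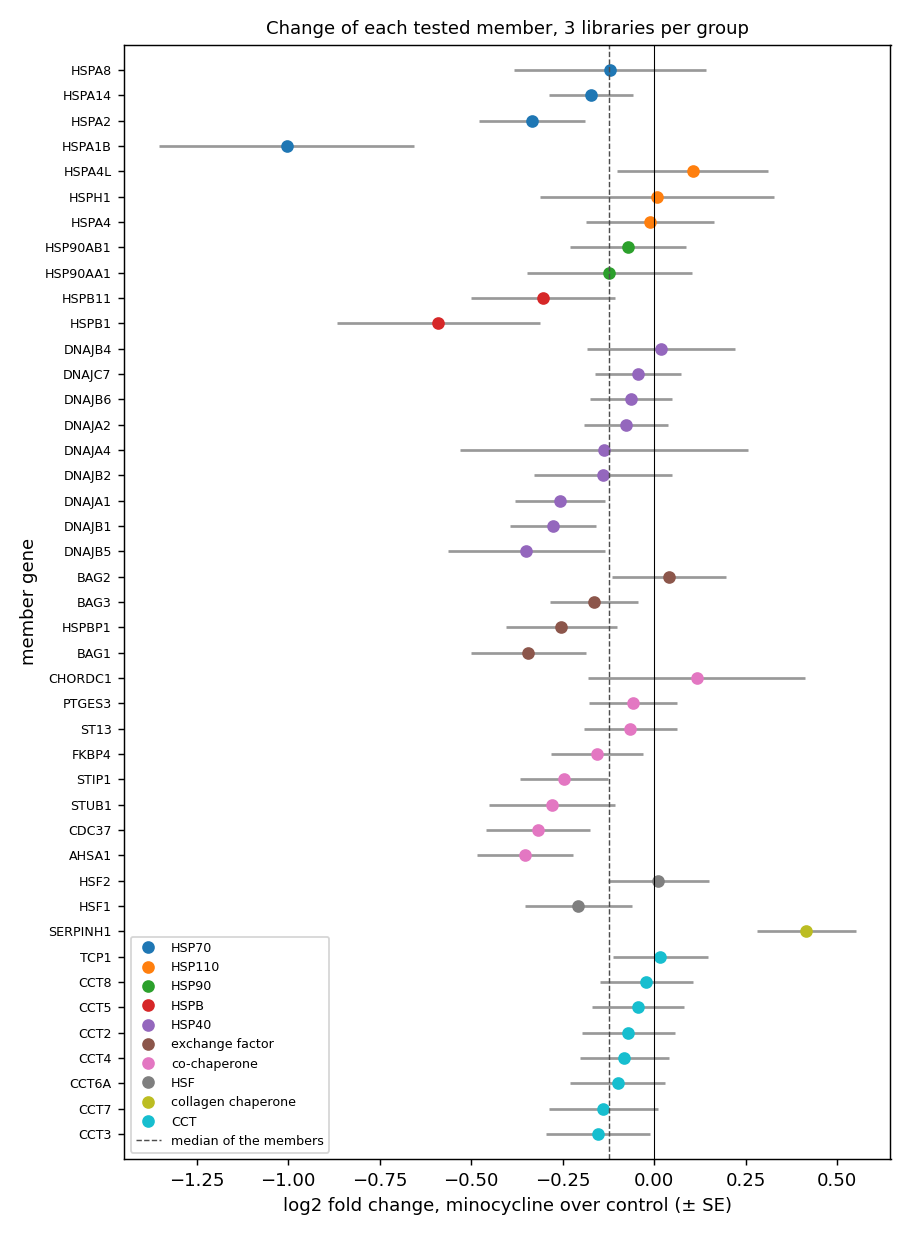
Log2 fold change of minocycline over control on the x axis for each of the 43 tested members on the y axis, grouped and coloured by family, with bars of 1 SE and a dashed line at the members' median of -0.12. SERPINH1 lies farthest to the right at 0.42 and HSPA1B farthest to the left at -1.0.

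Total counts per library were 17303180 to 17835756. Library composition differed within groups. The share of counts on cytosolic ribosomal protein genes was 7.40%, 11.02% and 12.2% in the controls, by replicate number, and 8.33%, 7.34% and 10.8% with minocycline, so that control replicate 1 lay beside minocycline replicates 1 and 2. The HEK293 markers NEFM, INA, VIM, CDH2 and PAX2 had at least 10 counts in every library, and their summed level was 717 to 948 CPM (counts scaled to a common library size with TMM factors) in control and 836 to 1053 CPM in minocycline libraries. Of the markers of other cells, PTPRC, ALB, COL1A2, COL3A1 and KRT5 summed to at most 2.77 CPM, and PTPRC was at 0 in 5 libraries.

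The spread between control libraries was set against the difference between groups. The log2 range of the 3 controls exceeded the fitted difference between groups in 37 of 43 members (86.05%) and in 88.3% of all genes. Control replicate 1 was the highest control in 19 members and the lowest in 20. The share of the members in each case, 44.2% and 46.5%, was near the 43.9% and 43.0% of all genes. Members showed both orders of the controls.

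**Figure D2:**
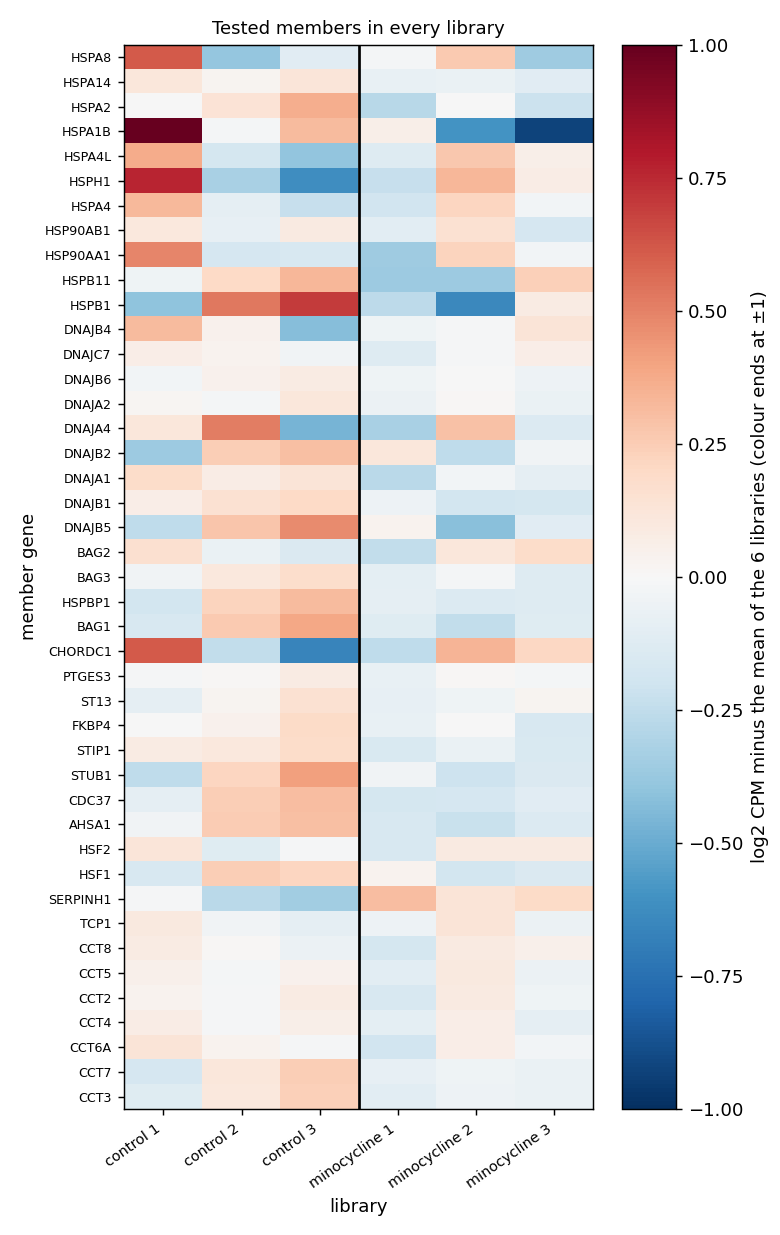
Log2 CPM of each tested member (rows, by family) in each library (columns) minus its mean over the 6 libraries, in colour. HSPH1, CHORDC1 and HSPA8 are red in control replicate 1, while HSPB1, STUB1, BAG1 and HSPBP1 are blue there and red in control replicates 2 and 3.

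Among the HSP70 genes, HSPA8 encodes HSC70, the constitutive HSP70 of the cytosol. By replicate number, as in all values that follow, its level was 1420, 708 and 858 CPM in control libraries and 914, 1109 and 724 CPM with minocycline. Control replicate 1 was the highest of the 6 libraries and control replicate 2 the lowest, and the groups overlapped. The log2 fold change of HSPA8 was -0.12 ± 0.26. HSPA8 held 83.9% to 90.9% of the counts of the 5 HSP70 members across libraries. That sum includes HSPA1A and HSPA1B, whose levels are uncertain, as described below. HSPA2, best known from male germ cells, was at 54.0, 59.6 and 69.5 CPM in control and 44.6, 54.0 and 46.7 CPM in minocycline libraries. Its minocycline libraries lay below the controls by a narrow margin (log2 fold change -0.33 ± 0.14). HSPA14, a ribosome-associated HSP70, was at 73.9, 69.6 and 74.2 CPM in control and 64.7, 65.1 and 63.1 CPM in minocycline libraries, with groups that did not overlap. Its log2 fold change was -0.17 ± 0.11.

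HSPA1A and HSPA1B are the heat-inducible HSP70 pair, and both had far fewer counts than HSPA8. HSPA1A had 5, 9 and 18 counts in control libraries, against 4, 7 and 89 with minocycline. Minocycline replicate 3 stood apart, and the other 5 libraries lay between 4 and 18 counts. HSPA1B had 255, 102 and 127 counts in control and 118, 75 and 57 in minocycline libraries, a log2 fold change of -1.0 ± 0.35. It was called lower with no filter on low counts (-1.02, adjusted p = 0.00885, where 0.0566% of all genes were called lower) and with 1 surrogate variable (-1.25, adjusted p = 0.0354, where 0.0464% were called lower, 0.482% higher and 0.528% in all), and its adjusted p ran from 0.00885 to 1.00 over 15 alternatives. Its log2 fold change was -0.58 without control replicate 1. In the edgeR fit with no filter on low counts HSPA1A went the other way, at 1.56 ± 0.41 (adjusted p = 0.0566). Most of its counts with minocycline were the 89 of replicate 3. The 2 genes are near-identical copies, so reads can be split between them or lost, and their levels are uncertain. They lie on chromosome 6 (GRCh37; HSPA1A from 31783320 to 31785723, HSPA1B from 31795515 to 31798031, plus strand). Within 250 kb of them 41 of 46 protein-coding neighbours (89.1%) had under 10 counts in every library, against 26.4% of 19404 protein-coding genes in the table. HSPA1L, their neighbour in the same family, had 0 counts throughout.

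The HSP110 proteins are large relatives of HSP70 that act as its exchange factors. HSPH1 encodes the heat-inducible HSP105. It was at 98.3, 46.4 and 37.8 CPM in control libraries and at 49.5, 72.9 and 61.03 CPM in minocycline libraries. All 3 minocycline libraries lay between control replicate 1 and control replicate 2. The group means were 60.8 ± 32.7 and 61.1 ± 11.7 CPM (SD, n = 3), and the log2 fold change was 0.01 ± 0.32. Its within-group SD of 0.55 on the log2 scale was above that of 91.03% of all genes tested. HSPA4 ran the same way, at 283, 212 and 192 CPM in control and 198, 263 and 221 CPM in minocycline libraries. HSPA4L, its close relative, was at 54.3, 37.1 and 31.9 CPM and at 38.4, 50.5 and 43.8 CPM. In both, control replicate 1 was the highest and control replicate 3 the lowest of the 6 libraries. HSPH1 made up 22.6%, 15.7% and 14.4% of HSP110 counts in control and 17.3%, 18.9% and 18.7% in minocycline libraries.

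**Figure D3:**
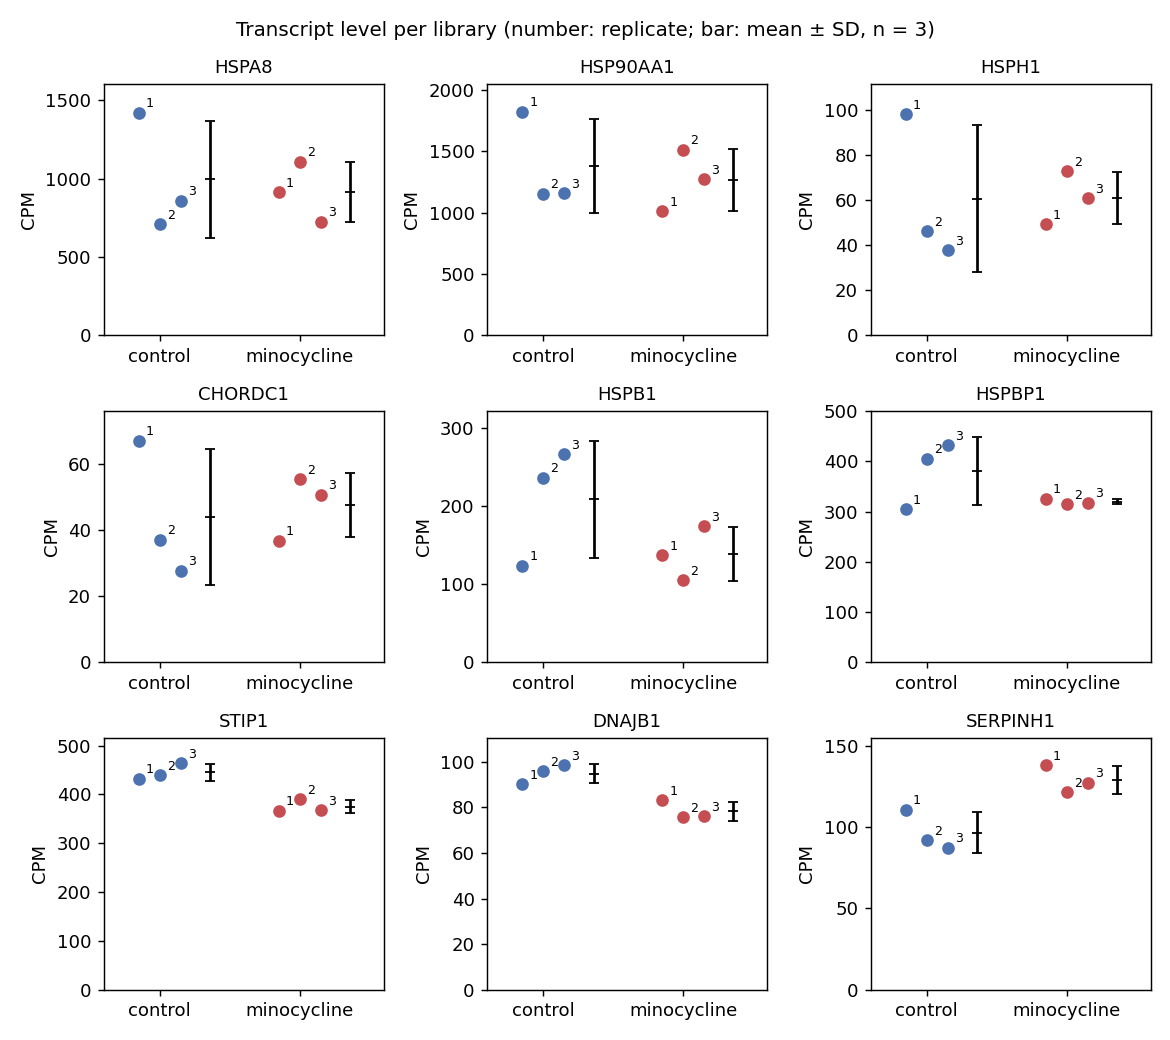
Level in CPM (y axes, from 0) of 9 members in each control (blue) and minocycline (red) library, numbered by replicate, with the mean ± SD of each group as a black bar. Control replicate 1 is the highest point for HSPA8, HSP90AA1, HSPH1 and CHORDC1 and the lowest control for HSPB1 and HSPBP1, while the groups do not overlap for STIP1, DNAJB1 and SERPINH1.

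HSP90 has a heat-inducible isoform, HSP90AA1, and a constitutive one, HSP90AB1. HSP90AA1 was at 1823, 1154 and 1158 CPM in control and 1012, 1513 and 1272 CPM in minocycline libraries. The groups overlapped, with control replicate 1 highest and minocycline replicate 1 lowest (log2 fold change -0.12 ± 0.23). HSP90AB1 varied less, at 2175, 1905 and 2143 CPM in control and 1876, 2247 and 1800 CPM in minocycline libraries (-0.07 ± 0.16). The share of HSP90AA1 in the counts of both genes, which no scaling factor can move, was 45.6%, 37.7% and 35.1% in control and 35.03%, 40.2% and 41.4% in minocycline libraries. The means were 39.5% ± 5.48 and 38.9% ± 3.39 (SD, n = 3), and the two-sided exact permutation test gave p = 0.900, where the smallest p this design allows is 0.1.

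The genes that carry small HSP names had the opposite course. HSPB1 encodes HSP27, an ATP-independent holdase. It was at 124, 237 and 266 CPM in control libraries and at 137, 105 and 174 CPM in minocycline libraries. Control replicate 1 lay among the minocycline libraries, and the other 2 controls lay above all of them (log2 fold change -0.59 ± 0.28). With 1 surrogate variable the log2 fold change was -0.15 ± 0.09. HSPB11, a subunit of the intraflagellar transport complex despite its name, was at 29.4, 34.9 and 38.2 CPM in control and 23.7, 23.5 and 35.8 CPM in minocycline libraries (-0.30 ± 0.20).

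Of the 9 HSP40 genes 8 had a lower fitted level and none passed. DNAJB1 encodes the main heat-inducible J-protein, HDJ1. It was at 90.1, 95.8 and 98.6 CPM in control and 83.1, 75.7 and 76.1 CPM in minocycline libraries, with no overlap (log2 fold change -0.28 ± 0.12, adjusted p = 0.820). DNAJA1, a farnesylated J-protein, was at 233, 216 and 224 CPM in control and 170, 201 and 192 CPM in minocycline libraries, also without overlap (-0.26 ± 0.12). DNAJA2, DNAJB6 and DNAJC7 differed little, at -0.08 ± 0.12, -0.06 ± 0.11 and -0.04 ± 0.12. DNAJB2, DNAJB4 and DNAJB5 showed -0.14 ± 0.19, 0.02 ± 0.20 and -0.35 ± 0.21. DNAJA4 was near the floor, with 9 to 18 counts per library. Exons of DNAJB1 overlap those of TECR on the opposite strand, and reads of such pairs cannot be separated unless strand was used, which no label states. In all 9 members share exon bases with a coding gene on the opposite strand. They are DNAJB1, DNAJC7, HSPA14, HSP90AA1, BAG2, AHSA1, STUB1, HSF1 and TCP1.

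The exchange factors of HSP70 include the BAG proteins and HSPBP1. BAG3, a heat-inducible factor of selective autophagy, was at 76.7, 84.6 and 89.0 CPM in control and 73.5, 77.6 and 72.01 CPM in minocycline libraries. The groups overlapped by control replicate 1 and minocycline replicate 2 (-0.17 ± 0.12). BAG1 was at 68.6, 92.1 and 100.1 CPM in control and 70.4, 64.6 and 70.6 CPM in minocycline libraries (-0.34 ± 0.16). HSPBP1 was at 305, 405 and 432 CPM in control and 325, 315 and 318 CPM in minocycline libraries (-0.25 ± 0.15). Control replicate 1 sat among the minocycline libraries for BAG1 and below all of them for HSPBP1. BAG2 showed 0.04 ± 0.16, and 2842 bases of its exons overlap RAB23 on the opposite strand.

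Co-chaperones of HSP70 or HSP90 gave 3 of the 7 members whose minocycline libraries lay wholly below the controls. STIP1 (HOP), which hands clients from HSP70 to HSP90, was at 432, 440 and 464 CPM in control and 367, 389.9 and 368 CPM in minocycline libraries (log2 fold change -0.25 ± 0.12). AHSA1, the activator of the HSP90 ATPase, was at 170, 208 and 214 CPM in control and 156, 149.6 and 159 CPM in minocycline libraries (-0.35 ± 0.13). CDC37, the kinase-specific co-chaperone, was at 453, 569 and 595 CPM in control and 426, 428 and 444 CPM in minocycline libraries (-0.32 ± 0.14). Each had an adjusted p of 0.820. CHORDC1, a heat-inducible HSP90 partner also called morgana, went the other way along the controls, at 66.9, 37.02 and 27.7 CPM, with 36.8, 55.3 and 50.6 CPM in minocycline libraries (0.12 ± 0.30). The p23 gene PTGES3 was the steadiest of the group, at 436, 445 and 467 CPM in control and 417, 443 and 435 CPM in minocycline libraries. FKBP4, ST13 and the ubiquitin ligase gene STUB1 showed -0.16 ± 0.13, -0.07 ± 0.13 and -0.28 ± 0.17. In STUB1, 985 exon bases overlap JMJD8 on the opposite strand.

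Over all families 7 members had minocycline libraries wholly below the controls (HSPA2, HSPA14, DNAJA1, DNAJB1, STIP1, AHSA1 and CDC37) and 1 had them wholly above (SERPINH1), which 3.56% and 5.74% of all genes tested showed (9.31% in both directions). Within the batches 13 members (30.2%) were lower in all 3, 1 (2.33%) was higher in all 3 and 29 (67.4%) were mixed, against 10.1%, 13.3% and 76.6% of all genes tested. The median difference over the members was -0.17, -0.05 and -0.18 in batches 1, 2 and 3, against 0.02, 0.02 and 0.01 for all genes.

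SERPINH1 was the highest fold change of the 43. It encodes HSP47, a collagen chaperone that resides in the endoplasmic reticulum and not in the cytosol. Its level was 111, 92.1 and 87.2 CPM in control and 138, 122 and 127 CPM in minocycline libraries, so that every minocycline library lay above every control. The log2 fold change was 0.42 ± 0.13 (adjusted p = 0.820), and the differences within batches 1, 2 and 3 were 0.32, 0.40 and 0.54. Of the collagen genes only COL3A1 and COL1A2 were looked at, as markers of other cells. COL3A1 was at about 2 CPM, and COL1A2 had at most 1 count in a library.

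The heat shock factors did not pass either. HSF1 was at 133, 176 and 172 CPM in control and 152, 131 and 134 CPM in minocycline libraries (-0.21 ± 0.15). HSF2, a partner of HSF1 in development and stress, was at 47.7, 40.2 and 43.3 CPM and at 39.1, 46.5 and 46.6 CPM (0.01 ± 0.14). The counts measure the mRNA of these factors and not their activity. Exons of HSF1 overlap DGAT1 on the opposite strand.

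The chaperonin genes varied little. Their median within-group SD was 0.10 on the log2 scale, against 0.14 for all members and 0.25 for all genes tested. This was not particular to them, as the HSP40 genes had 0.096 and the HSP70 and HSP90 co-chaperones 0.11. The sets were not matched for count level. Summed over the 8 subunits the level was 3884, 4020 and 4208 CPM in control and 3623, 4007 and 3768 CPM in minocycline libraries. The log2 fold changes ran from -0.15 ± 0.14 (CCT3) to 0.02 ± 0.13 (TCP1) with a median of -0.08, and no subunit passed. All 8 overlapped between groups. CCT7 and CCT3 were lowest in control replicate 1 among the controls (CCT7 at 793, 961 and 1057 CPM, and 841, 863 and 849 CPM with minocycline). TCP1, CCT4, CCT5, CCT6A and CCT8 were highest there among the controls (CCT8 at 298, 283 and 269 CPM, and 249, 299 and 290 CPM with minocycline). TCP1 shares exon bases with ACAT2 on the opposite strand.

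Levels of different genes were compared per kb of annotated exon, as CPM per kb in control libraries (SD, n = 3). HSP90AB1 was first at 696 ± 49.6, above every other member in each control library. HSP90AA1 (270 ± 75.6), CCT7 (261 ± 37.2) and HSPA8 (205 ± 77.4) followed. HSP90AA1 lay above HSPA8 in each control library (358 against 293, 226 against 146 and 227 against 177). CCT7 lay below both in control replicate 1 and above both in control replicates 2 and 3. CCT3 (193 ± 23.7), CDC37 (177 ± 24.9) and HSPBP1 (176 ± 30.8) came next. The 8 CCT subunits, which occur in equal numbers in the protein ring, differed 3.17-fold in this measure, from CCT5 (82.6 ± 2.26) to CCT7, while 5 of them lay between 82.6 and 98.3. With the longest coding transcript as the length the spread was 3.26-fold, and CCT7 (461) and HSPA8 (432) both lay above HSP90AA1 (393). DNAJC7 moved from 11.3 to 68.0 and DNAJB6 from 9.15 to 55.1, so the order depends on the length used. The lowest members were HSPA1A (0.26 ± 0.17) and DNAJA4 (0.12 ± 0.04). The places of HSPA1A and HSPA1B in this order are uncertain, as their reads can be split between them or lost.

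**Figure D4:**
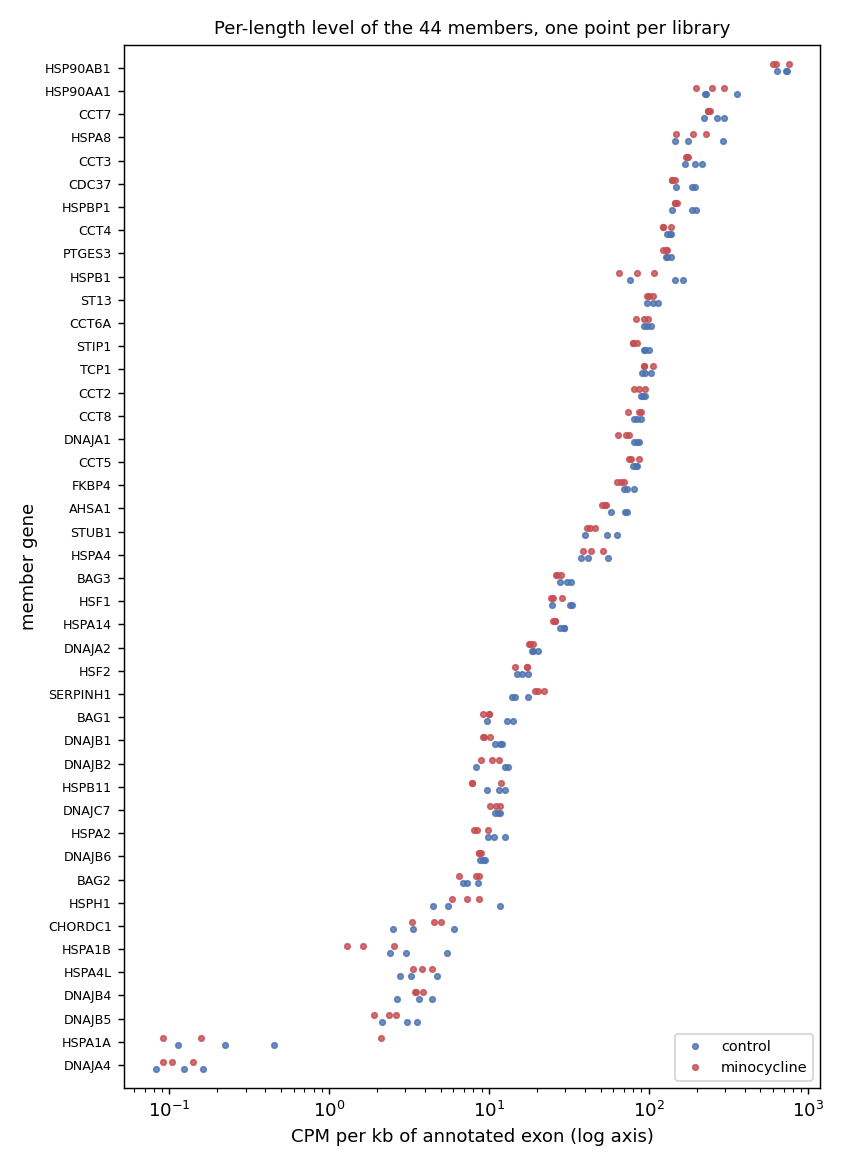
Level in CPM per kb of annotated exon (log x axis) of the 44 members (y axis, ordered by their control mean), with 1 point per control (blue) or minocycline (red) library. HSP90AB1 is highest at 696 in control, most CCT subunits lie close together near 100, and HSPA1A and DNAJA4 lie below 1 in control.

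The members with a heat shock element of 3 units did not share a direction. Their log2 fold changes were 0.42 (SERPINH1), 0.12 (CHORDC1), -0.06 (DNAJB6), -0.07 (HSP90AB1), -0.12 (HSPA8) and -0.12 (HSP90AA1). Between control libraries, CHORDC1, HSPA8 and HSP90AA1 spanned 2.42-fold, 2.01-fold and 1.58-fold, while DNAJB6 and HSP90AB1 spanned 1.08-fold and 1.14-fold. HSPH1, without a match in its window, spanned 2.60-fold.

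Leaving out control replicate 1 changed these calls. Then 11 of 44 members passed in edgeR (25.0%), against 17.9% of 17658 genes, 3 of them higher (9.52% of all genes) and 8 lower (8.34%). The higher genes were SERPINH1 (0.52 ± 0.12, adjusted p = 0.00888), HSPH1 (0.54 ± 0.16, adjusted p = 0.0284) and CHORDC1 (0.56 ± 0.17, adjusted p = 0.0373). The lower genes were HSPB1 (-0.86 ± 0.16, adjusted p = 0.00386), BAG1, AHSA1, STUB1, CDC37, HSPBP1, DNAJB5 and HSPA2, at log2 fold changes of -0.53 to -0.39. With 1 surrogate variable and all 6 libraries none of these 11 passed, and SERPINH1 was at 0.34, HSPH1 at -0.29, CHORDC1 at -0.14, BAG1 at -0.16, AHSA1 at -0.24, STUB1 at -0.063, CDC37 at -0.19, HSPBP1 at -0.093, DNAJB5 at -0.090 and HSPA2 at -0.26. Without control replicate 1 HSPA8 and HSP90AA1 moved from -0.12 each to 0.22 ± 0.16 and 0.13 ± 0.15 and did not pass, while with 1 surrogate variable they were at -0.40 and -0.32. With control replicate 1 left out the control libraries held 11.02% and 12.2% of their counts in ribosomal protein genes, above all 3 minocycline libraries (7.34% to 10.8%), and the part of this difference in the 11 calls was not tested.

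**Figure D5:**
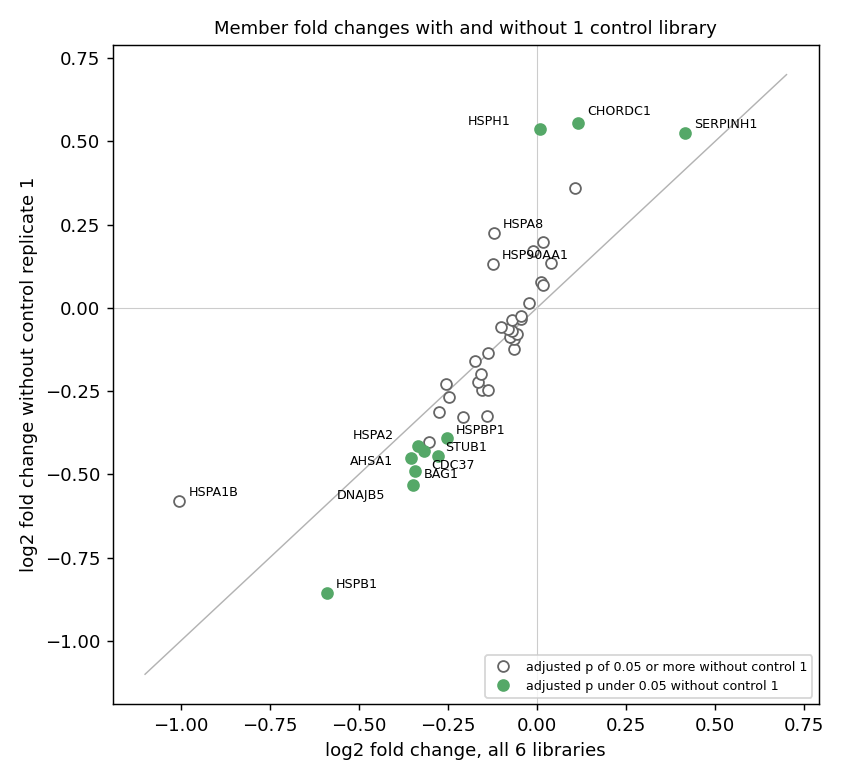
Log2 fold change of each tested member with all 6 libraries (x axis) and without control replicate 1 (y axis), with the line of equality in grey and filled green points for adjusted p under 0.05 without that library. HSPH1 and CHORDC1 lie above the line at 0.54 and 0.56, and HSPB1 lies below it at -0.86.

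Other genes of protein folding were listed apart from the members. Of 64 listed genes 63 were in the table and 54 were tested, and 0 passed (0.0522% of all genes), with 17 higher and 37 lower in the fit and a median of -0.11. At an unadjusted p under 0.05 there were 1 higher and 3 lower genes. The higher genes with the smallest unadjusted p were HSPA13, an HSP70 relative of the endoplasmic reticulum (0.74 ± 0.26), the HSP90 co-chaperone gene AARSD1 (0.51 ± 0.25) and DNAJC13 (0.28 ± 0.22). The lower ones were HSPE1, which encodes the mitochondrial HSP10 (-0.48 ± 0.16), HSPA12B (-0.75 ± 0.26) and the CCT helper gene PDCL3 (-0.32 ± 0.14). Of the 9 tested prefoldin and CCT helper genes 8 had a lower fitted level (median -0.25). HSPA6, which is silent in most cells until they are heated, was at 0.82 to 1.14 CPM in the 6 libraries (0.07 ± 0.33).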

How the data were processed

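Total RNA of HEK293 cells was sequenced as paired-end reads from NEBNext Ultra II libraries, per the labels' protocols. The authors deposited whole-number counts per gene for 6 libraries, aligned to hg19 per the submitters' processing notes. For the aligner, counting program, annotation and strand use no source used here gives an answer. Of 57820 rows 55538 matched a symbol. Positions and exon lengths came from GENCODE 44 mapped to GRCh37, and promoters from RefSeq (GRCh38.p14).

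Genes were filtered with filterByExpr, scaled with TMM factors and tested with edgeR 4.0.16 (glmQLFit and glmQLFTest, R 4.3.3) at a Benjamini-Hochberg adjusted p under 0.05 over all 17225 genes. A standard error is the log2 fold change divided by the square root of F. Log2 CPM for spread and batch differences used a prior count of 2. DESeq2 1.42.0, limma 3.58.1 (voom) and sva 3.50.0 were alternatives. On simulated counts for 17225 genes the test recovered 17.9%, 55.2% and 97.0% of genes changed 1.5-fold, 2-fold and 4-fold. These counts were drawn gene by gene, without the composition differences between libraries described above, and genes with low counts were not changed. Recovery in the real libraries can therefore differ. P-values measure the spread between 3 libraries per group.

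The labels give the replicate number also as the batch, so same-numbered libraries were taken as paired in an alternative fit. Deviations from group means of same-numbered libraries correlated at -0.05, -0.29 and 0.30 across genes. The members and gene lists were chosen with earlier results of these data known. All 44 members were reported, and other folding genes were named by the smallest unadjusted p, 3 in each direction. HSPA6 and HSPA1L were named outside this rule.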

Additional observations from a re-analysis of the deposited data

How the results depend on the processing

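Over the tested members and 15 alternatives, 573 fitted values kept their direction and their side of the threshold, 13 passed the threshold where the reported fit did not, and 58 changed sign. No member was called with RLE, upper-quartile or library-size scaling, with at least 10 counts in every library, with the replicate block, with DESeq2 or with limma-voom. With no filter on low counts, and with 1 surrogate variable, 1 member was called, HSPA1B, which was lower. With no filter 1 of the other folding genes was called. Of all genes, 0.28% were called with no filter and 0.528% with 1 surrogate variable. Leaving out each library in turn gave 0 to 11 members called (0 to 3 higher, 0 to 8 lower) and 0 to 17 of the other folding genes. Every call came from leaving out control replicate 1, where 17.9% of all genes were called. The replicate block, with the batch number as pairing, changed no member's call. The median over the members was -0.16 to -0.06 across alternatives, and library-size scaling moved the median of all genes to 0.08.

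Sign changes were mostly of members near 0. With RLE factors HSF2 was at -0.0067, TCP1 at -0.0012 and HSPH1 at -0.010. With library-size scaling CCT5 was at 0.027, HSPA4 at 0.051, HSP90AB1 at 0.00084, DNAJB6 at 0.010, PTGES3 at 0.017, CCT2 at 0.0027, DNAJC7 at 0.026, CCT8 at 0.048 and ST13 at 0.011. With no filter on low counts HSF2 was at -0.0063, TCP1 at -0.00076 and HSPH1 at -0.0072. With the replicate block HSPA4 was at 0.00063. With DESeq2 HSF2 was at -0.0068, TCP1 at -0.0012 and HSPH1 at -0.0090. With limma-voom HSPA4 was at 0.00026. With 1 surrogate variable DNAJB4 was at -0.11, DNAJB2 at 0.11, HSPA4L at -0.10, BAG2 at -0.032, HSF2 at -0.041, TCP1 at -0.054, CHORDC1 at -0.14, HSPH1 at -0.29 and ST13 at 0.0038. Leaving out each library in turn gave log2 fold changes of -0.054 to 0.16 for BAG2, -0.074 to 0.055 for CCT8, -0.14 to 0.56 for CHORDC1, -0.36 to 0.11 for DNAJA4, -0.17 to 0.20 for DNAJB4, -0.10 to 0.0059 for DNAJC7 and -0.047 to 0.089 for HSF2. The ranges were -0.27 to 0.13 for HSP90AA1, -0.13 to 0.17 for HSPA4, -0.057 to 0.36 for HSPA4L, -0.32 to 0.22 for HSPA8, -0.25 to 0.54 for HSPH1 and -0.047 to 0.070 for TCP1. The cause of these changes was not tested.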

Other observations

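Processed (intronless) copies were counted as genes of their own. For 21 members 82 named copies were in the table, with 2343 counts in all over the 6 libraries. The highest share was 4.69% of the parent's counts, for the copies of DNAJB6. Of the 9 copies that passed the filter 0 were called by edgeR's quasi-likelihood test.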
